A study of Rattus norvegicus with 4 samples.

Results

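The miRNAs described here are the products of the rat genes for miR-146a, miR-146b, miR-155, miR-132 and miR-212, chosen by their number in the count table with any letter or arm suffix. There were 10 such mature miRNAs among 740 miRNA names, each counted at 1 locus, and all 10 had reads in both cell libraries while 9 had reads in both vesicle libraries. Small RNA was sequenced from 4 libraries, 1 for each group. RC-cells were resting zone chondrocytes and GC-cells were growth zone chondrocytes, both from costochondral cartilage of male Sprague Dawley rats, grown to confluence at passage 4 in medium with serum freed of bovine exosomes. RC-MVs and GC-MVs were the matrix vesicles of these cultures, the membrane organelles that chondrocytes leave in their extracellular matrix, recovered by centrifugation from the trypsin-digested cell layer. The sources used here name no inflammatory stimulus, no genotype and no pooling, and the cells were expanded in monolayer rather than taken directly from the growth plate. The libraries held 6517329 miRNA reads for RC-cells and 1108821 for their MVs, and 7414467 for GC-cells and 982543 for their MVs, and values below follow this order of libraries where they are listed without names. With 1 library per group no sequencing difference has a replicate check within a group, and no p-value is given, and the 95% intervals cover counting error only.

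A miRNA gene is transcribed as a longer RNA whose hairpin is cut into a short duplex, and the strand from either arm of the hairpin (5p or 3p) can be loaded onto an Argonaute protein. Bases 2 to 8 of the loaded strand, the seed, pair with target mRNAs. Transcription of miR-146a and miR-155 rises with NF-kB after Toll-like receptor or cytokine signals. miR-146a acts as a brake on that pathway through the adaptors IRAK1 and TRAF6, whereas miR-155, cut from the non-coding BIC transcript, is mostly known for promoting inflammatory responses in leukocytes. miR-132 and miR-212 are cut from 1 shared transcript that is induced by the transcription factor CREB. All of these miRNAs have been studied in inflamed or osteoarthritic joints.

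The mature sequences below were matched by name to RefSeq on the GRCr8 assembly, which held all 10 of the miRNAs, whereas the reads had been counted on the build Rnor_6.0. They are written 5′ to 3′ with the seed in capitals. The first 5 are the strands usually loaded, and the other 3 are opposite arms whose reads differed most between cells and vesicles or between zones. At miR-212, however, the 5p arm had more reads than the 3p arm in every library.
rno-miR-146a-5p: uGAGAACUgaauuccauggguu
rno-miR-146b-5p: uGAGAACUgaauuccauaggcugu
rno-miR-155-5p: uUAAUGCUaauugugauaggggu
rno-miR-132-3p: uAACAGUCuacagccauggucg
rno-miR-212-3p: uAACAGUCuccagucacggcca
miR-146b-3p: cCUAGGGAcucaguucuggug
miR-132-5p: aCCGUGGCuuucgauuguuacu
miR-212-5p: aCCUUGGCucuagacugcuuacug

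The 2 miR-146 guides shared the seed GAGAACU and their first 17 bases, and 20 of the 22 positions compared were identical. Counted from the 5′ end, miR-146b-5p differs from miR-146a-5p by G18A and U21C and is 2 bases longer, so a read cut short of base 18 fits both, and the treatment of such reads is not given in the sources used here. miR-132-3p and miR-212-3p shared the seed AACAGUC and their first 9 bases, with 17 of 22 positions identical and the differences A10C, C14U, U17C, U20C and G22A. Of the names with a RefSeq sequence, 660 of 740, none but miR-155-5p had the seed UAAUGCU. The opposite arms had diverged further, with 14 of 22 identical positions between miR-132-5p and miR-212-5p and 6 of 21 between miR-146a-3p and miR-146b-3p, and none of them shared its seed with any matched name.

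On GRCr8, miR-146a-5p lies at chr10:28350053-28350074 on the minus strand and miR-146b-5p at chr1:255144874-255144897 on the plus strand. miR-155-5p lies at chr11:37261117-37261139 on the plus strand. The miR-212 products, at chr10:60521771-60521794 for the 5p and chr10:60521811-60521832 for the 3p arm, and the miR-132 products, at chr10:60522055-60522076 for the 5p and chr10:60522091-60522112 for the 3p arm, lie on the plus strand of chromosome 10, with 182 bases between their hairpins.

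Levels are given as the percent of all miRNA reads of a library, and since the mature miRNAs are 21 to 24 bases long no scaling by length was made. Together the 10 miRNAs took 0.303%, 0.231%, 0.305% and 0.282% of the miRNA reads of RC-cells, their MVs, GC-cells and their MVs. The miR-146 guides made up most of this, with 86.1%, 84.0%, 81.9% and 77.9% of these reads. At least 10 reads were found for 7 of the 10 miRNAs in all 4 libraries. A percent is relative to the other miRNAs of its library, and within a culture fewer cells with a miRNA and less of it in each cell cannot be told apart.

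**Figure D1:**
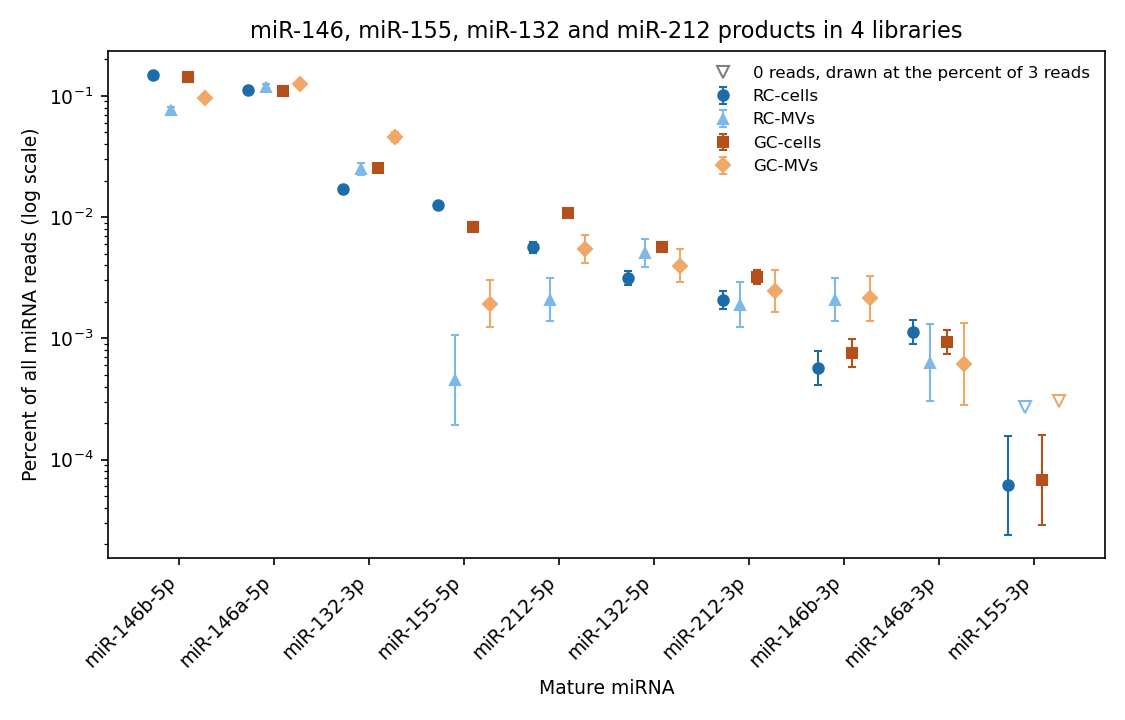
Percent of all miRNA reads (log scale) for each of the 10 miRNAs in the 4 libraries; bars are Wilson 95% intervals and open triangles mark 0 reads, drawn at the percent of 3 reads. miR-146a-5p lay between 0.109% and 0.124% in all 4 libraries, whereas miR-155-5p went from 0.0125% in RC-cells to 0.000451% in RC-MVs.

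In the count table each name carries the prefix for rat, as in rno-miR-146a-5p. miR-146a-5p, the feedback inhibitor of Toll-like receptor signaling, had 7316 reads in RC-cells and 1317 in the MVs they produced, and 8049 in GC-cells and 1220 in the MVs of these. These were 0.112%, 0.119%, 0.109% and 0.124% of the miRNA reads, and in order of size the Wilson intervals of neighbouring levels overlapped, while that of GC-MVs overlapped neither cell library and that of RC-MVs did not overlap GC-cells. It ranked between 55 and 66 among the miRNA names of each library. miR-146b-5p, made from its own gene on another chromosome, had 9701, 839, 10503 and 940 reads in the same order of libraries. Its shares were 0.149% and 0.0757% in resting zone cells and vesicles, and 0.142% and 0.0957% in those of the growth zone. For miR-146b-5p no neighbouring intervals overlapped, and both vesicle levels lay below both cell levels.

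miR-155-5p had 813 reads in RC-cells but 5 in the vesicles of the resting zone, and 618 reads in GC-cells but 19 in the vesicles of the growth zone. This was 0.0125%, 0.000451%, 0.00834% and 0.00193% of the miRNA reads, with no overlap between neighbouring intervals. Its rank was 151 and 150 in RC-cells and GC-cells but 330 and 249 in RC-MVs and GC-MVs. Its opposite arm, miR-155-3p, had 4 reads in RC-cells, 5 in GC-cells and none in either vesicle library. At the percent of the parent cells, 0.681 reads in the vesicles of the resting zone and 0.663 in those of the growth zone would have been found, so a difference in miR-155-3p was not detectable at this depth.

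miR-132-3p, the guide strand of the CREB-induced pair, had 1117 reads in RC-cells and 275 in their vesicles, and 1895 in GC-cells and 449 in theirs. Its share was 0.0171%, 0.0248%, 0.0256% and 0.0457%, highest in GC-MVs and lowest in RC-cells, while the intervals of GC-cells and RC-MVs overlapped. miR-212-3p, with the same seed, was the rarer of the pair with 135, 21, 237 and 24 reads. Its shares of 0.00207%, 0.00189%, 0.00320% and 0.00244% had overlapping intervals between neighbours in order of size, but not between RC-cells and GC-cells. Added over the shared seed, miR-132-3p and miR-212-3p took 0.0192%, 0.0267%, 0.0288% and 0.0481% of the miRNA reads.

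Among the opposite arms, miR-212-5p had 368 and 23 reads in cells and vesicles of the resting zone and 798 and 54 in those of the growth zone, with shares of 0.00565%, 0.00207%, 0.0108% and 0.00550%. The GC-cell level was the highest and the RC-MV level the lowest, and the 2 others overlapped. miR-132-5p had 204, 56, 420 and 39 reads, or 0.00313%, 0.00505%, 0.00566% and 0.00397%, and the intervals overlapped between neighbours in order of size, but RC-cells overlapped neither RC-MVs nor GC-cells. miR-146b-3p had 37, 23, 56 and 21 reads, or 0.000568%, 0.00207%, 0.000755% and 0.00214%, so that both vesicle levels lay above both cell levels. miR-146a-3p had 74, 7, 69 and 6 reads, or 0.00114%, 0.000631%, 0.000931% and 0.000611%, with overlapping intervals between neighbours in order of size.

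In the comparison of resting zone vesicles with their cells, which asks which miRNAs are over- or under-represented in RC-MVs, miR-155-5p had the lowest ratio of the 9 miRNAs with reads in both libraries. Its share was 27.7-fold lower in the vesicles (95% interval 11.8 to 85.4), with 5 reads where 138 would have been found at the percent of the cells. Only 0.966% of the 414 miRNAs with reads in both libraries had a lower ratio. miR-212-5p was also lower in RC-MVs, by 2.72-fold (1.79 to 4.35), and miR-146b-3p was higher by 3.65-fold (2.07 to 6.31). By the study's 2-fold convention this gave 1 miRNA higher and 2 lower of 9, where 33.6% of all miRNAs were called higher and 30.4% lower, or 64.0% in either direction. The shares of the miRNAs called were thus no larger than those over all miRNAs, and their median log2 ratio was -0.13 against 0.08 for all 414.

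Of the 5 strands usually loaded, the 4 other than miR-155-5p stayed within 2-fold in RC-MVs, although at miR-212 the called 5p arm had more reads than the 3p arm counted here. The ratio of miR-146a-5p was 1.06 (0.997 to 1.12), and its direction turned under other scalings, to a ratio of 0.993 with TMM factors and 0.914 with reduced totals, which leave out the abundant miR-143-3p, miR-22-3p and miR-21-5p. miR-146b-5p was 1.97-fold lower (1.83 to 2.11), just inside the threshold, and 2.10-fold, 2.02-fold or 2.28-fold lower with TMM factors, DESeq2 size factors or the reduced totals. miR-132-3p was 1.45-fold higher (1.26 to 1.65), and 1.25-fold higher with the reduced totals. miR-212-3p had a ratio of 0.914 with an interval that included 1 (0.548 to 1.45). miR-132-5p was 1.61-fold higher (1.18 to 2.18), and miR-146a-3p had a ratio of 0.556 with a wide interval (0.216 to 1.20), which passed the threshold with the reduced totals, at 2.08-fold lower.

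In the growth zone, miR-155-5p was again the lowest of the 9 miRNAs. Its share was 4.31-fold lower in GC-MVs than in GC-cells (2.74 to 7.21), with 19 reads where 81.9 would have been found at the percent of the cells, and 8.39% of 417 miRNAs had a lower ratio. miR-146b-3p was 2.83-fold higher (1.63 to 4.75). These were the 2 calls among the 9 miRNAs, 1 higher and 1 lower, against 32.1% and 25.2% of all 417 miRNAs, or 57.3% in either direction. The median log2 ratio of the 9 was -0.51, and that of all 417 was 0.13.

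miR-212-5p was 1.96-fold lower in GC-MVs (1.49 to 2.63), and it passed the threshold with TMM factors, at 2.29-fold lower, and with DESeq2 size factors, at 2.17-fold lower. miR-132-3p was 1.79-fold higher (1.61 to 1.98) and miR-146b-5p was 1.48-fold lower (1.38 to 1.58). With TMM factors miR-132-3p was 1.53-fold higher, below its interval. The ratio of miR-146b-5p was 0.578 with TMM factors, 0.610 with DESeq2 size factors and 0.725 with the reduced totals, all outside its interval. miR-146a-5p had a ratio of 1.14 (1.08 to 1.21), which became 0.979 with TMM factors. miR-132-5p had a ratio of 0.701 (0.491 to 0.974), miR-212-3p of 0.764 (0.480 to 1.16) and miR-146a-3p of 0.656 (0.233 to 1.50).

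**Figure D2:**
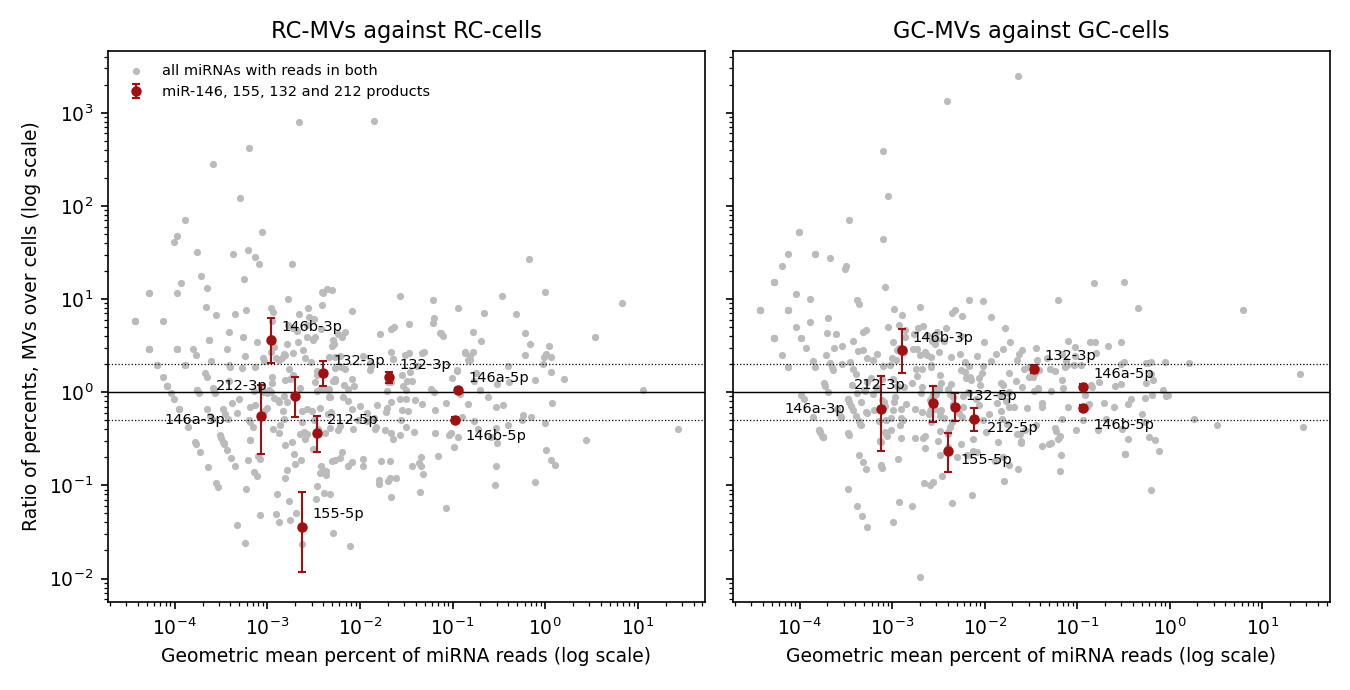
Ratio of percents in MVs over cells (log scale) against the geometric mean percent (log scale), with the resting zone on the left and the growth zone on the right; grey points are all miRNAs with reads in both libraries, red points the 9 named miRNAs with exact 95% intervals, and dotted lines mark 2-fold. miR-155-5p lies at 0.0361 on the left and 0.232 on the right, while the points of miR-146a-5p lie at 1.06 and 1.14.

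Marker miRNAs of other cells moved between cells and vesicles as well. The 4 leukocyte miRNAs looked at, miR-142-3p, miR-142-5p, miR-223-3p and miR-150-5p, added up to 0.00114% of the miRNA reads of RC-cells and 0.0141% of their MVs, and to 0.00107% of GC-cells and 0.0313% of their MVs. All 4 had reads in every library, except that miR-223-3p was at 0 in GC-cells. miR-155-5p, which leukocytes also express, went the other way, and the part of these markers in the results was not tested. The erythroid miRNAs miR-451-5p and miR-144-3p, 2 of the 3 listed, added up to 0.000107%, 0.0744%, 0.000148% and 0.158%. The third, miR-486, was not analysed here. Of 4 neural miRNAs the sums were 0.0467%, 0.0161%, 0.0419% and 0.0149%, with the defining miR-124-3p at 0 in all 4 libraries. Most of these reads were of miR-128-3p, which had 2967, 175, 2991 and 140, while miR-9a-5p had between 4 and 114 and miR-9a-3p at most 3. The 4 cartilage miRNAs from miR-140 and miR-455 had reads everywhere and added up to 0.526%, 1.00%, 0.636% and 0.841%, with miR-140-3p at 24948, 10542, 37484 and 7799 reads. The sum follows miR-140-3p, and the 4 did not move together. In RC-MVs and GC-MVs against their cells, miR-140-3p had ratios of 2.48 and 1.57 and miR-455-3p of 1.72 and 1.45, whereas miR-140-5p was 8.37-fold and 3.75-fold lower and miR-455-5p 2.66-fold and 2.57-fold lower.

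Shares within a pair of related miRNAs do not depend on how libraries are scaled. Of the reads of both miR-146 guides, miR-146a-5p held 43.0% in RC-cells (Wilson interval 42.3 to 43.7) and 43.4% in GC-cells (42.7 to 44.1). Its share was 61.1% in RC-MVs (59.0 to 63.1) and 56.5% in GC-MVs (54.4 to 58.6). As counted, the order of the miR-146 guides was thus inverted between cells and vesicles in both zones, beyond counting error. A read too short to hold their differing bases fits both guides, and the part of such reads in this inversion was not tested. Summed, the miR-146 guides were 0.261%, 0.194%, 0.250% and 0.220% of the miRNA reads, which gave vesicle ratios of 0.745 (0.712 to 0.779) in the resting zone and 0.879 (0.840 to 0.919) in the growth zone.

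For the seed-sharing strands of the transcript that miR-132 and miR-212 share, miR-132-3p held 89.2% of the pair's reads in RC-cells (87.4 to 90.8) and 88.9% in GC-cells (87.5 to 90.1). It held 92.9% in RC-MVs (89.4 to 95.3), an interval that overlaps that of RC-cells, and 94.9% in GC-MVs (92.6 to 96.6), above GC-cells. The 5p arms behaved differently in RC-MVs, where miR-132-5p held 70.9% of the reads of both 5p arms (60.1 to 79.7) against 35.7% in RC-cells (31.8 to 39.7). In the growth zone its share was 34.5% in cells (31.9 to 37.2) and 41.9% in MVs (32.4 to 52.1), which overlap.

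**Figure D3:**
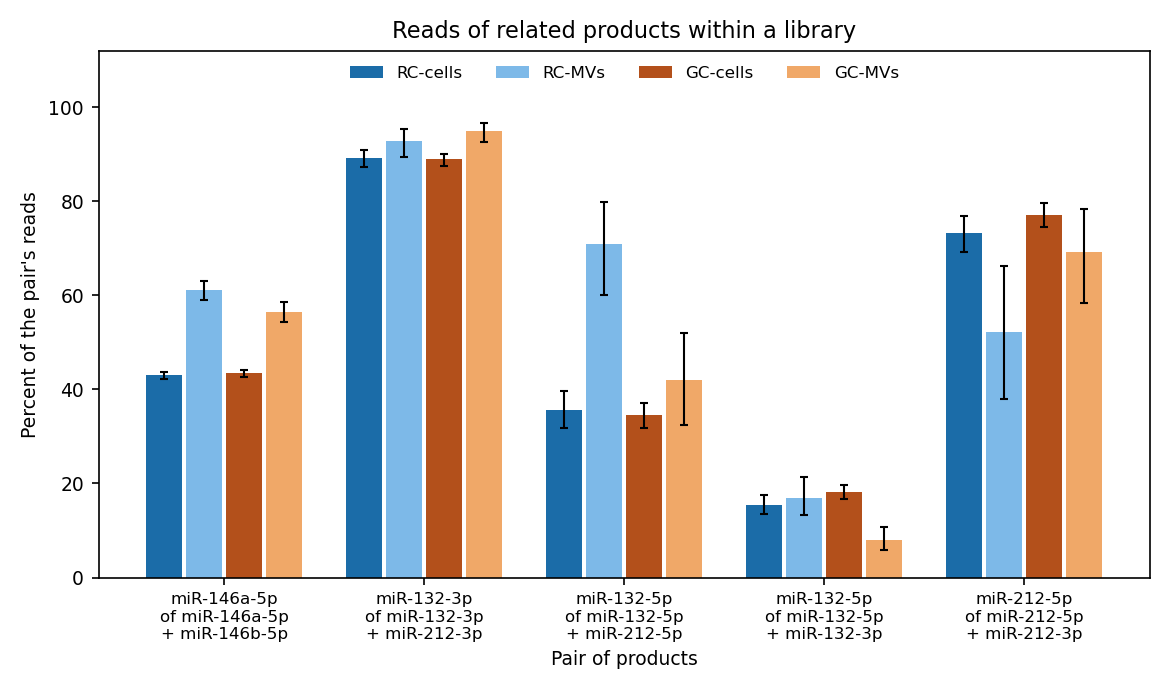
Percent of a pair's reads taken by the first-named miRNA (bars starting at 0) in each of the 4 libraries, with Wilson 95% intervals. miR-146a-5p rises from 43.0% to 61.1% of its pair between RC-cells and RC-MVs, and miR-132-5p holds 70.9% of the 5p pair in RC-MVs alone against 34.5% to 41.9% in the other libraries.

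Both arms of a hairpin come from 1 transcript, and their balance also moved. At miR-146b, the 3p arm held 0.380% of the hairpin's reads in RC-cells (0.276 to 0.523) and 0.530% in GC-cells (0.409 to 0.688), and 2.67% in RC-MVs (1.78 to 3.97) and 2.19% in GC-MVs (1.43 to 3.32). The ratio of the 3p to the 5p arm was therefore 7.19 times that of the cells in RC-MVs (4.25 to 12.2) and 4.19 times in GC-MVs (2.53 to 6.95), on 23 and 21 vesicle reads of the 3p arm. A change of at least 2-fold in the arm ratio was seen at 73.1% of the 134 hairpins with reads of both arms in RC-cells and RC-MVs, and at 61.4% of those so covered in the growth zone, so such changes were common.

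At miR-212, the 5p arm was the more abundant in every library, with 73.2% of the hairpin's reads in RC-cells (69.1 to 76.8) and 77.1% in GC-cells (74.4 to 79.6). Its share was 52.3% in RC-MVs (37.9 to 66.2), where the reads of both arms were near equal, and 69.2% in GC-MVs (58.3 to 78.4). The change of its arm ratio was 0.402 in the resting zone (0.215 to 0.750) and 0.668 in the growth zone (0.404 to 1.10). At the neighbouring miR-132 the 3p arm dominated, with the 5p arm at 15.4% in RC-cells (13.6 to 17.5), 18.1% in GC-cells (16.6 to 19.8) and 16.9% in RC-MVs (13.3 to 21.3). GC-MVs lay below them, at 7.99% (5.90 to 10.7). Between RC-MVs and GC-MVs the arm ratio of miR-132 differed by 2.34-fold (1.52 to 3.62) and that of miR-212 was 0.487 of that in GC-MVs (0.227 to 1.04), where 43.1% of 123 hairpins differed by 2-fold. Between RC-cells and GC-cells none of the 5 hairpins did, where 11.4% of 167 did. The 3p arm of miR-146a stayed between 0.489% and 1.00% of its hairpin's reads.

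In RC-cells against GC-cells, which compares less mature with more mature chondrocytes, none of the 10 miRNAs differed by 2-fold, where 13.7% of all 474 miRNAs were called higher in RC-cells and 5.70% lower, or 19.4% in either direction. miR-155-5p was 1.50-fold higher in RC-cells (1.35 to 1.66), and all 4 products of the transcript shared by miR-132 and miR-212 were lower. miR-132-3p was 1.49-fold lower in RC-cells than in GC-cells (1.38 to 1.61), miR-212-3p 1.54-fold (1.24 to 1.92), miR-132-5p 1.81-fold (1.53 to 2.15) and miR-212-5p 1.91-fold (1.68 to 2.16). The ratios of the miR-146 guides were close to 1, at 1.03 for miR-146a-5p (1.00 to 1.07) and 1.05 for miR-146b-5p (1.02 to 1.08). Those of the rarer arms were 1.22 for miR-146a-3p (0.867 to 1.72), 0.752 for miR-146b-3p (0.482 to 1.16) and 0.910 for miR-155-3p (0.181 to 4.23).

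This comparison moved with the scaling. TMM factors, DESeq2 size factors and the reduced totals shifted the log2 ratio of RC-cells to GC-cells by -0.34, -0.36 and -0.32, and the share of higher ones among all miRNAs called went from 70.7% to 40.0%, 37.6% and 41.2%, in that order. Under these scalings the ratio of miR-146a-5p became 0.820, 0.807 and 0.830, that of miR-146b-5p 0.833, 0.821 and 0.843, and that of miR-146a-3p 0.967, 0.953 and 0.979, which reversed their direction. miR-155-5p kept its direction at 1.19, 1.17 and 1.20, below its printed interval. miR-132-5p passed the threshold, at 2.28-fold, 2.32-fold and 2.26-fold lower in RC-cells, as did miR-212-5p at 2.41-fold, 2.44-fold and 2.38-fold. The ratio of miR-132-3p became 0.531, 0.524 and 0.538, and that of miR-212-3p 0.514, 0.506 and 0.520. These were further from 1 than their printed intervals and just short of the threshold.

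In RC-MVs against GC-MVs, miR-155-5p and miR-212-5p were the 2 miRNAs called of 9, both lower in RC-MVs, where 14.6% of all 397 miRNAs were called lower and 24.7% higher, or 39.3% in either direction. miR-155-5p was 4.29-fold lower in RC-MVs (1.55 to 14.7), on 5 and 19 reads, and miR-212-5p was 2.65-fold lower (1.60 to 4.52). miR-132-3p was 1.84-fold lower (1.58 to 2.15), and passed the threshold at 2.12-fold, 2.19-fold and 2.85-fold with TMM factors, DESeq2 size factors and the reduced totals. miR-146b-5p had a ratio of 0.791 (0.720 to 0.869). The intervals of the 5 others included 1, with ratios of 0.957 for miR-146a-5p (0.884 to 1.03), 0.775 for miR-212-3p (0.411 to 1.45), 1.27 for miR-132-5p (0.831 to 1.97), 0.971 for miR-146b-3p (0.514 to 1.84) and 1.03 for miR-146a-3p (0.297 to 3.72). With TMM factors, DESeq2 size factors and the reduced totals miR-146a-5p was at 0.832, 0.805 and 0.618, all below its printed interval, and miR-146b-5p was at 0.688, 0.666 and 0.511. The reduced totals turned miR-132-5p to 0.822, and all 3 scalings turned miR-146a-3p, to between 0.668 and 0.899. The scalings shifted this log2 ratio by -0.20, -0.25 and -0.63, and the share of higher ones among all miRNAs called fell from 62.8% to 51.0%, 46.4% and 24.7%.

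**Figure D4:**
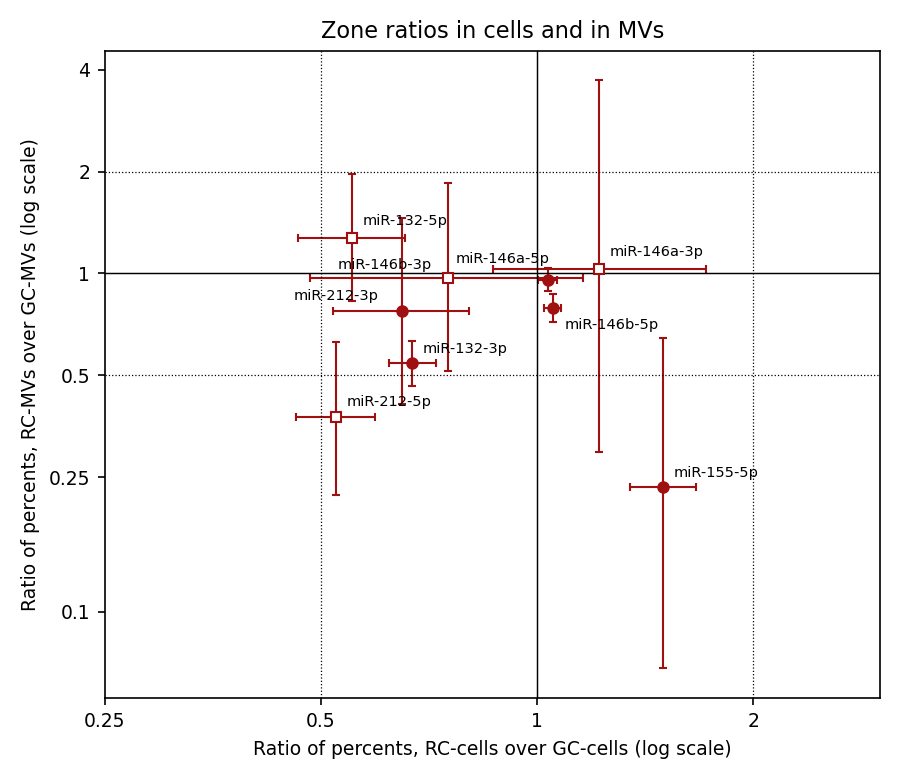
Ratio of percents RC-MVs over GC-MVs against RC-cells over GC-cells (both log scales) with exact 95% intervals; filled circles are the usually loaded strands, open squares the opposite arms, and dotted lines mark 2-fold. miR-155-5p lies at 1.50 in cells and 0.233 in MVs, while miR-132-3p, miR-212-3p, miR-212-5p and miR-146b-3p lie below 1 on both axes. miR-212-5p is drawn as an opposite arm although it had more reads than miR-212-3p in every library.

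The vesicle ratio of the resting zone divided by that of the growth zone shows whether vesicles and cells related differently in the 2 zones, without a replicate check. For miR-155-5p the vesicle ratio was 6.42-fold lower in the resting than in the growth zone (Wald interval 2.38 to 17.3), and for miR-132-5p the quotient was 2.30 (1.48 to 3.58). They were the 2 of 9 miRNAs past 2-fold, where 31.0% of 384 miRNAs with reads in all libraries were, and with the reduced totals miR-132-5p fell to 1.85. The quotient was 0.753 for miR-146b-5p (0.683 to 0.829) and 0.809 for miR-132-3p (0.685 to 0.957), both under 2-fold. With TMM factors, DESeq2 size factors and the reduced totals it was 0.826, 0.811 and 0.606 for miR-146b-5p. In the same order it was 0.888, 0.872 and 0.652 for miR-132-3p. The intervals included 1 for miR-146a-5p at 0.925 (0.850 to 1.01; 1.01 with TMM factors and 0.745 with the reduced totals), miR-212-5p at 0.719 (0.435 to 1.19), miR-212-3p at 1.20 (0.642 to 2.23), miR-146b-3p at 1.29 (0.627 to 2.66) and miR-146a-3p at 0.847 (0.271 to 2.65).

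Other miRNAs linked to NF-kB and Toll-like receptor signaling were counted for context from a list of 14. In RC-MVs against RC-cells, 5 of the 14 were called higher and 6 lower, with a median log2 ratio of -0.43, where 33.6% and 30.4% of all miRNAs were called. In GC-MVs against GC-cells 2 were called higher and 5 lower of 12, with a median of -0.21, where 32.1% and 25.2% of all were. miR-125a-5p was 3.05-fold lower in RC-MVs (2.83 to 3.30) and 4.67-fold lower in GC-MVs (4.16 to 5.24), and let-7e-5p, from the same cluster, was 2.86-fold (2.63 to 3.11) and 3.18-fold lower (2.86 to 3.55). miR-99b-5p, the other list member from that cluster, had ratios above 1, at 2.02 and 1.35. miR-21-5p was 2.48-fold and 2.34-fold lower, and miR-181b-5p was 2.19-fold and 2.15-fold higher. Between zones, 2 of 13 were called higher in RC-cells and none lower (13.7% and 5.70% of all miRNAs), and in RC-MVs 3 of 13 were called higher and 1 lower (24.7% and 14.6%).

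Of 8 other miRNAs studied in osteoarthritic cartilage, 2 were called higher and 4 lower in RC-MVs against RC-cells, and 1 higher and 5 lower in GC-MVs against GC-cells, with median log2 ratios of -1.04 and -1.47, beside the same shares over all miRNAs as for the first list (33.6% and 30.4%, then 32.1% and 25.2%). The ratio of miR-22-3p was 9.10 in the resting zone (9.04 to 9.16) and 7.64 in the growth zone (7.59 to 7.69). miR-27b-3p, which targets the collagenase mRNA Mmp13, was lower in RC-MVs by 5.84-fold to 6.16-fold and 4.30-fold lower in GC-MVs (4.16 to 4.45). None of the 8 was called between RC-cells and GC-cells, where 19.4% of all miRNAs were, and 1 was called in each direction between the vesicles, where 39.3% were. miR-9a-5p and miR-125b-5p are in both lists.

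For each of the 7 miRNAs with at least 10 reads in every library, the 3 miRNAs with the most similar pattern were found among 261 others, by the distance between log2 percents centred on their mean over the 4 libraries. The nearest to miR-146a-5p was miR-185-3p at a distance of 0.11, followed by miR-191a-5p at 0.17 and miR-3068-5p at 0.18, where the median over all others was 1.48. For miR-146b-5p they were miR-1843a-5p at 0.27, miR-872-3p at 0.31 and miR-30e-5p at 0.38, so the miR-146 guides did not have each other among their nearest. For miR-132-3p they were miR-143-5p at 0.23, miR-29b-3p at 0.33 and miR-324-5p at 0.34, and for miR-212-3p miR-342-3p at 0.25, miR-330-5p at 0.35 and miR-145-3p at 0.44. For miR-212-5p, with a median distance of 2.27, the nearest was miR-106b-5p at 0.58, followed by miR-194-5p at 0.58 and miR-7a-5p at 0.64. miR-132-5p was nearest to miR-6329 at 0.36, with miR-3068-5p at 0.55 and miR-212-3p at 0.63, and miR-146b-3p to miR-378b at 0.26, miR-378a-3p at 0.30 and miR-874-3p at 0.37. These distances rest on 4 libraries and describe only those.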

How the data were processed

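Small RNA from 2 cell and 2 vesicle libraries was sequenced by the authors, aligned with Bowtie2 to Rnor_6.0 and tabulated with miARma-Seq, and the deposited values are whole-number read counts per miRNA locus, without normalization. Tool versions, trimming and the treatment of reads matching several loci are not given in the sources used here. Counts of loci with the same name were added, giving 740 names from 774 loci, and divided by all miRNA reads of the library, of which the deepest held 7.55 times as many as the shallowest. Percents and their ratios follow the study's methods, and the 2-fold threshold is the one its results use. The minimum of 1 read in both libraries was set here. Intervals of shares are Wilson intervals, those of ratios exact Clopper-Pearson intervals and those of quotients of ratios Wald intervals, all at the 95% level. PCR copies of a molecule count as separate reads. The percent of 3 reads, used where a count was 0, was 4.60e-05% for RC-cells and 0.000271% for their MVs, and 4.05e-05% for GC-cells and 0.000305% for theirs.

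With 1 library per group, no group has a measure of its own spread and no test was made. A model with additive terms for zone and fraction, which would treat the zones as replicates, was not run. The miRNAs and lists were chosen with earlier results of these data known. From the lists, at most 6 miRNAs were named that had at least 100 reads in every library. They also had to be past 2-fold in the same direction in both vesicle comparisons. miR-99b-5p was named outside this rule, as a member of the cluster of miR-125a-5p and let-7e-5p. miR-9a-5p and miR-125b-5p were named as members of both lists, and from the marker lists all were named. The alternatives were edgeR's TMM factors, DESeq2 size factors, totals without 3 abundant miRNAs, at least 10 reads, a pseudocount of 0.5, 4-fold, the whole interval beyond 2-fold, loci kept apart and both miR-146 guides added. The calculations were tested on simulated data. Scaling factors came from DESeq2 1.42.0 and edgeR 4.0.16 under R 4.3.3. All else was computed in Python 3.11.15 using scipy 1.17.1, pandas 2.3.3 and numpy 2.4.6, with figures by matplotlib 3.10.9.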

Additional observations from a re-analysis of the deposited data

Results flagged for a closer look

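Several miRNAs had ratios on opposite sides of 1 in 2 comparisons of the same kind, and with 1 library per group these differences were not tested. The ratio of RC to GC was 1.50 in cells and 0.233 in MVs for miR-155-5p, 1.05 and 0.791 for miR-146b-5p, 1.03 and 0.957 for miR-146a-5p, and 0.553 and 1.27 for miR-132-5p. The ratio of MVs to cells of miR-132-5p was 1.61 for RC and 0.701 for GC. For miR-155-5p and miR-132-5p the 4-library quotient was past 2-fold, and for miR-146a-5p its interval included 1, although with the reduced totals the quotient was 0.745. With TMM factors, DESeq2 size factors or the reduced totals, the cell ratios of miR-146a-5p and miR-146b-5p also lay below 1. For miR-132-5p the interval of the ratio of RC-MVs to GC-MVs included 1 (0.831 to 1.97), and with the reduced totals this ratio was 0.822 and the quotient 1.85.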

How the results depend on the processing

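Each group has 1 library, so no replicate could be left out and the labels give no replicate numbers to pair by. The cells and MVs of a zone could be paired in a model without an interaction of zone and fraction, which was not run. In RC-MVs against RC-cells, the count of named miRNAs called higher was 0 at 4-fold. The count lower was 1 at 4-fold, with at least 10 reads and with the whole interval beyond 2-fold. It was 3 with TMM and with DESeq2 size factors, and 4 with the reduced totals, which leave out miR-143-3p, miR-22-3p and miR-21-5p. In GC-MVs against GC-cells, the count higher was 0 at 4-fold and with the whole interval, and the count lower was 2 with TMM and with DESeq2 size factors. Between cells, 2 were lower with TMM, DESeq2 size factors and the reduced totals. Between vesicles, the count lower was 1 at 4-fold and with at least 10 reads, and 0 with the whole interval. It was 3 with TMM, DESeq2 size factors and the reduced totals. The cause of these changes was not tested, except that the minimum of 10 reads leaves out miR-155-5p with its 5 reads in RC-MVs. No alternative changed the direction of a called ratio, and the shares of miR-146a-5p and miR-132-3p in their pairs moved by less than their intervals with a pseudocount of 0.5. The other shares were not recomputed. Over all miRNAs, the number higher went from 139 to 72 at 4-fold in RC-MVs against RC-cells and the number lower from 126 to 71. With at least 10 reads the number lower there was 83, and with the whole interval 82. In the growth zone 134 higher became 61, 83 and 71 and 105 lower became 40, 61 and 63 under these settings. Between cells, 65 higher became 34 with TMM, 32 with DESeq2 size factors and 35 with the reduced totals, and 27 lower became 51, 53 and 50. At 4-fold, 10 reads and the whole interval they were 13, 40 and 18 higher and 7, 10 and 6 lower, and 54 lower with a pseudocount of 0.5. Between vesicles, 98 higher became 40 with the reduced totals and 58 lower became 122, and 4-fold, 10 reads and the whole interval gave 19, 64 and 42 higher and 13, 33 and 19 lower. Depth limits miR-155-5p in vesicles, miR-155-3p and miR-146a-3p most.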
